A study of Mus musculus with 6 samples.

Results

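The Rag GTPases, the Ragulator complex that anchors them, the small GTPase Rheb and the folliculin complex are the lysosomal machinery through which amino acids and growth factors switch on mTORC1. The 10 genes described here are Rraga, Rragc and Rragd (Rag GTPases), Lamtor1, Lamtor2, Lamtor4 and Lamtor5 (Ragulator), Rheb, and Flcn and Fnip1 (folliculin complex). They were taken by gene name from the 53465 genes of the count table, and each name matched 1 gene. The remaining genes of the same families, Rragb, Lamtor3, Rhebl1 and Fnip2, were used for comparison.

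RNA was sequenced from 6 mouse liver tumour cell lines. The 3 Myc_Utx lines (2A, 2B and 2D) came from tumours of C57BL/6 mice that had received a Sleeping Beauty Myc transposon, driven by the EF1a promoter, together with a plasmid for Cas9 and a guide RNA against Kdm6a (also called Utx). The 3 comparison lines (1, 2 and 3) came from tumours made with the same Myc transposon and a guide RNA against another gene. The mice were adult females injected through the tail vein, and every line came from a different animal. Both groups therefore carried Myc and Cas9 editing, no unedited line was part of the comparison, and effects of losing Kdm6a cannot be told apart from effects of the other guide in the comparison lines. The question is how the Kdm6a-deficient lines differed from these reference lines.

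As background, a RagA or RagB protein pairs with a RagC or RagD protein, and the active pair brings mTORC1 to the lysosomal surface. Ragulator is a scaffold of 5 subunits: Lamtor1 carries the lipid anchor and wraps around the other subunits, which pair as Lamtor2 with Lamtor3 and Lamtor4 with Lamtor5. Rheb, held on membranes by a farnesyl group, activates mTORC1 once it has arrived. Folliculin, encoded by Flcn, acts with Fnip1 or Fnip2 as a GTPase-activating protein for RagC and RagD, a step required for mTORC1 to phosphorylate the transcription factors TFEB and TFE3. Loss of folliculin releases these factors into the nucleus, where they bind E-box motifs of lysosomal genes. MYC binds the same core motif.

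The promoters of the genes whose levels differed between the groups are shown with that of Lamtor4, which held the most E-boxes of any member. Each is RefSeq sequence on the strand of the gene, from 250 bases before to 50 after the start annotated by RefSeq, in build GRCm38.p6, and capitals mark the E-box CACGTG, which reads the same on both strands. The RefSeq start of Lamtor1 lies upstream of the gene start in the count table (101905904), so its window ends before that start and could not be matched to a GENCODE transcript.
Rraga (chr4:86575423-86575722, plus strand): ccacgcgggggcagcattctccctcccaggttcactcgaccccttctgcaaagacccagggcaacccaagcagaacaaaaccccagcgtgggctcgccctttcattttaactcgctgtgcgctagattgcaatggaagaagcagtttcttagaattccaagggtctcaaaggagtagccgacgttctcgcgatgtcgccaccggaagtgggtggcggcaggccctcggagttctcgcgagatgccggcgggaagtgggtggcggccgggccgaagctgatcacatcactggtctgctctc
Lamtor1 (chr7:101905587-101905886, plus strand): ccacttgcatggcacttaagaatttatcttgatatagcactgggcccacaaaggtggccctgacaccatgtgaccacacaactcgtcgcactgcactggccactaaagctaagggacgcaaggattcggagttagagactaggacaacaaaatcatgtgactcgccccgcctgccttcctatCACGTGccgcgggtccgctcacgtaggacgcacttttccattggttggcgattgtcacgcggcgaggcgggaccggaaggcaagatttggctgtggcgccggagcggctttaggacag
Lamtor4 (chr5:138255232-138255531, plus strand): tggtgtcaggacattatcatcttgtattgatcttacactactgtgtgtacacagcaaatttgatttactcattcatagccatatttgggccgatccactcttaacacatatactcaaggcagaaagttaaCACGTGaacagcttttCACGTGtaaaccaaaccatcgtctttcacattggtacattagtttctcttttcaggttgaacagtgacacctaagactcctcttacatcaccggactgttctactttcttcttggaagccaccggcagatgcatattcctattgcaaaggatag
Fnip1 (chr11:54437929-54438228, plus strand): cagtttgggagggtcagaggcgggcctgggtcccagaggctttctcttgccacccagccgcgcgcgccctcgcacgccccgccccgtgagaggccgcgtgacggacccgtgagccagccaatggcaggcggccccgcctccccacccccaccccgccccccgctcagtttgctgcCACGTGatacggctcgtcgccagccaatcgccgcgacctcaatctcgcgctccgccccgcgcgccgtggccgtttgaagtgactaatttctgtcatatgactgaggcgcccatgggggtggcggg
Fnip2 (chr3:79567630-79567929, minus strand): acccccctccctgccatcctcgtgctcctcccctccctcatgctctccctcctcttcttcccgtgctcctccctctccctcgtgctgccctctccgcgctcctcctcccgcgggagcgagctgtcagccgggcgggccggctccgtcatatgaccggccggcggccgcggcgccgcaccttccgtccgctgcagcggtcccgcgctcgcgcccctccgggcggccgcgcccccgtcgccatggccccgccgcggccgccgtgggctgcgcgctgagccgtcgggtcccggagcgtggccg

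A promoter was found for 10 of 10 members, and 5 of them held an E-box. Counted from the RefSeq start, the motif began 112 bases upstream in Rragc (position -112), at -68 in Lamtor1, at -120 and -104 in Lamtor4, at -96 in Rheb and at -75 in Fnip1. The longer motif TCACGTGA, the core of the sites bound by TFEB, was in none of the 10. For comparison, 7.15% of 32851 promoters of this length held CACGTG and 0.974% held TCACGTGA. Of the tested genes with a promoter, 12.3% held CACGTG, against 14.8% of those called higher and 11.8% of those called lower in Myc_Utx lines. The E-box did not separate the members by direction: among the called members, Lamtor1 (higher) and Fnip1 (lower) held it, and Rraga (higher) did not. A match is a string of letters in this window, and binding was not measured in these data.

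Between 4656103 and 6937497 reads per line were assigned to genes. Of the 53465 genes, 11510 passed the filter on low counts and entered edgeR's quasi-likelihood F test, and p-values were adjusted over all of them by Benjamini-Hochberg. Levels are given as counts scaled to library size (CPM) after TMM normalization, and a positive log2 fold change means a higher level in Myc_Utx lines. Kdm6a mRNA overlapped between the groups (log2 fold change -0.39, adjusted p = 0.243), and small edits need not lower an mRNA. The 6 hepatocyte markers (Alb, Apoa1, Ttr, Hnf4a, Serpina1a and Trf) summed to 1.78 to 7.30 CPM in Myc_Utx and 9.27 to 15.7 CPM in comparison lines. Their sum was thus low in all 6 lines, and the genes did not move together. Alb held 14, 26 and 4 counts in Myc_Utx and 15, 7 and 16 in comparison lines. Apoa1 held 3, 5 and 3 against 0, 1 and 2, and Hnf4a held 3, 3 and 0 against 64, 8 and 47. The 8 macrophage markers summed to 2.79 to 5.99 CPM in Myc_Utx and 39.9 to 108.1 CPM in comparison lines, and 5 of the 6 tested were called lower in Myc_Utx lines. In such bulk libraries, fewer cells of a type and less RNA per cell cannot be told apart.

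All 10 members passed the filter. At an adjusted p under 0.05, 2 of 10 were higher in Myc_Utx lines (Rraga and Lamtor1) and 1 was lower (Fnip1), beside 6.99% of all tested genes called higher and 7.69% called lower. The groups did not overlap for 4 members that were higher in Myc_Utx lines and for 1 that was lower, beside 21.1% and 20.9% of all tested genes. The member fold changes ranged from -0.97 to 0.70 on the log2 scale, with a median of 0.09, against a median of -0.01 over all tested genes. Among the called members, a Rag GTPase and the Ragulator anchor were higher and the folliculin partner was lower. The other members did not pass the test. With length and GC content corrected within each line, 0 members were called higher and 1 lower. In that fit, 5.35% of all tested genes were called higher and 5.45% lower. Counts this small, beside these shares, describe single genes and not the machinery as a whole.

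**Figure D1:**
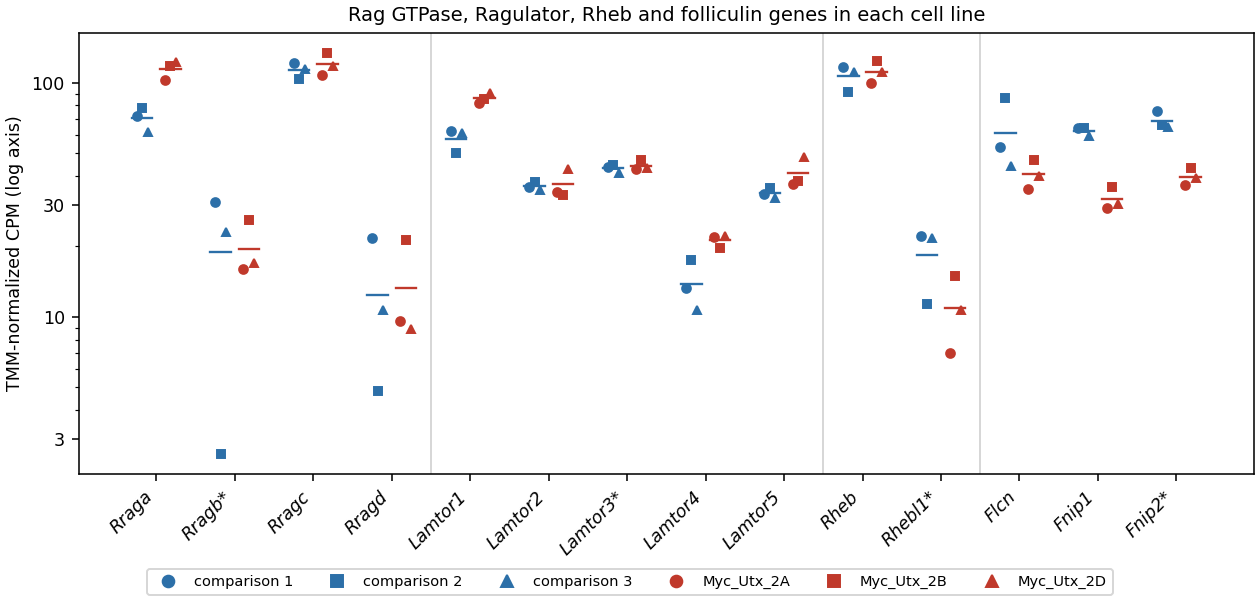
TMM-normalized CPM (log axis) of the 10 members and, with an asterisk, the other genes of their families, in each cell line; points are lines and bars are group means, with comparison lines in blue and Myc_Utx in red. The groups are separate and opposite in direction for Rraga (61.5 to 78.4 against 102.5 to 122.9 CPM) and Fnip1 (59.5 to 64.3 against 29.1 to 36.0 CPM), and Rragd and Rragb scatter most.

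Rraga (ENSMUSG00000070934) encodes RagA, whose GTP-bound form marks the active Rag pair. It was at 102.5, 117.6 and 122.9 CPM in Myc_Utx lines 2A, 2B and 2D and at 72.1, 78.4 and 61.5 CPM in comparison lines 1, 2 and 3. Every Myc_Utx line lay above every comparison line. The log2 fold change was 0.70 ± 0.14 (standard error; 95% interval 0.36 to 1.03, adjusted p = 0.0287), a 1.62-fold difference. Rraga is a single-exon gene on chromosome 4 (86575668 to 86577285, GRCm38) with a transcript of 1618 bases, and no 50-base stretch of it recurred in another gene's transcripts. Its transcript is short, and fold changes fell with transcript length across all tested genes (Spearman's rho -0.249). With length and GC content corrected within each line, the log2 fold change of Rraga was 0.46 and it was no longer called (adjusted p = 0.0609).

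Rragc and Rragd encode the 2 alternative partners of RagA and RagB. Rragc was at 107.9, 134.6 and 117.6 CPM in Myc_Utx and at 122.0, 104.2 and 114.2 CPM in comparison lines. The groups overlapped, and the log2 fold change of 0.08 had a 95% interval of -0.23 to 0.39 (adjusted p = 0.682). It shares 264 exon bases with 4930535I16Rik on the opposite strand, which held 0 to 2 counts per line. Rragd was at 9.57, 21.4 and 8.91 CPM in Myc_Utx and at 21.6, 4.82 and 10.7 CPM in comparison lines. Lines 2B and 1 were high and line 2 of the comparison group was low, so the spread within each group exceeded the difference between them. The log2 fold change of Rragd, 0.10, came with a 95% interval of -1.36 to 1.55.

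Rragb, the X-linked paralogue of Rraga, was at 15.95, 25.8 and 16.9 CPM in Myc_Utx lines. In comparison lines it was at 31.0, 2.60 and 23.1 CPM. Line 2 held 14 counts of Rragb and the other 5 lines held between 76 and 196, an 11.9-fold range within the comparison group. Its log2 fold change of 0.05 (adjusted p = 0.972) is an average over these unlike lines, and without line 2 of the comparison group it was -0.46 (adjusted p = 0.294).

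Lamtor1 (ENSMUSG00000030842) encodes the myristoylated and palmitoylated subunit that fixes Ragulator to the lysosome. It was at 81.8, 85.4 and 90.2 CPM in Myc_Utx lines and at 62.1, 50.05 and 61.3 CPM in comparison lines. Every Myc_Utx line was above every comparison line, with a standard deviation within groups of 4.22 and 6.75 CPM. The log2 fold change was 0.57 ± 0.13 (standard error; 95% interval 0.25 to 0.89, adjusted p = 0.0404), a 1.48-fold difference. Lamtor1 lies on chromosome 7 (101905904 to 101926675) and shares 600 exon bases with Lrrc51 on the opposite strand. Of the 50-base stretches of its longest transcript, 32.5% recurred in other genes' transcripts on either strand, mainly those of Lrrc51. Whether counting used strand was not stated, so reads in the shared bases are uncertain, and Lrrc51 itself held 5 counts in each Myc_Utx line and 10 to 13 in each comparison line. The call was also lost with length and GC content corrected (log2 fold change 0.51, adjusted p = 0.0584), without the filter on low counts (adjusted p = 0.0610) and with scaling by total counts (adjusted p = 0.0555).

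Lamtor4 and Lamtor5 encode the roadblock-fold pair at the base of Ragulator. Lamtor4 was at 21.9, 19.7 and 22.3 CPM in Myc_Utx lines and at 13.3, 17.4 and 10.7 CPM in comparison lines. The lines did not overlap, but the log2 fold change of 0.63 (95% interval 0.06 to 1.19) had an adjusted p of 0.115. Lamtor5 was at 36.9, 38.0 and 48.3 CPM in Myc_Utx lines and at 33.3, 35.6 and 32.2 CPM in comparison lines. These lines were also separate, by a narrow margin between 35.6 and 36.9 CPM, and the log2 fold change was 0.28 (95% interval -0.10 to 0.67, adjusted p = 0.255). Both genes have short lengths in the count table (1302 and 884 bases). With the length and GC correction, Lamtor4 had a log2 fold change of 0.35 and Lamtor5 one of -0.06. Of the 50-base stretches of Lamtor5, 14.5% recurred in other transcripts, mainly those of the pseudogene Gm15190, which held 0 to 2 counts per line.

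Lamtor2 encodes the roadblock subunit that pairs with Lamtor3. It was at 34.1, 33.3 and 43.0 CPM in Myc_Utx lines and at 36.0, 37.8 and 34.8 CPM in comparison lines. The values of the comparison lines lay within the Myc_Utx range, the log2 fold change was 0.02 (95% interval -0.36 to 0.40, adjusted p = 0.930), and the length and GC correction gave -0.27. Lamtor3, from 41.1 to 46.8 CPM over all 6 lines, had the narrowest range of the family, with a log2 fold change of 0.04 (95% interval -0.27 to 0.34). Of the 5 Ragulator genes, 1 was therefore called higher, beside 6.99% of all tested genes, and the intervals of Lamtor2, Lamtor3 and Lamtor5 spanned 0.

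Rheb was at 99.7, 123.8 and 111.1 CPM in Myc_Utx lines and at 116.6, 91.8 and 111.2 CPM in comparison lines. The groups overlapped almost fully, and the log2 fold change of 0.07 had a 95% interval of -0.28 to 0.41 (adjusted p = 0.767). Its paralogue Rhebl1 was at 6.98, 15.0 and 10.7 CPM in Myc_Utx lines and at 22.1, 11.3 and 21.8 CPM in comparison lines. Line 2 of the comparison group fell inside the Myc_Utx range, and the log2 fold change of -0.76 did not pass the test (adjusted p = 0.213).

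Fnip1 (ENSMUSG00000035992) encodes a binding partner through which folliculin reaches the Rag GTPases. It was at 29.1, 36.0 and 30.5 CPM in Myc_Utx lines 2A, 2B and 2D and at 63.8, 64.3 and 59.5 CPM in comparison lines 1, 2 and 3. The groups were far apart relative to their spread, with standard deviations of 3.61 and 2.68 CPM (n = 3 each). The log2 fold change was -0.97 ± 0.14 (standard error; 95% interval -1.31 to -0.63, adjusted p = 0.0169), so the level in comparison lines was 1.96-fold that in Myc_Utx lines. Fnip1 lies on chromosome 11 (54438199 to 54518235). It was the member with the largest change, and it kept its call with length and GC content corrected (log2 fold change -0.91, adjusted p = 0.0223).

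Fnip2, the paralogue with which Fnip1 shares this role, was at 36.5, 43.1 and 39.2 CPM in Myc_Utx lines and at 76.0, 66.2 and 64.4 CPM in comparison lines. It fell as well: the log2 fold change was -0.80 ± 0.14 (standard error; 95% interval -1.13 to -0.46, adjusted p = 0.0213), and -0.60 with length and GC content corrected (adjusted p = 0.0463). Per kilobase of the length in the count table, Fnip1 and Fnip2 together came to 8.45, 10.2 and 8.97 CPM in Myc_Utx lines. In comparison lines they came to 18.1, 17.0 and 16.1 CPM. The lower level of one partner was thus not met by a higher level of the other. Macrophage markers moved in the same direction as both genes. Those markers summed to 98.3, 39.9 and 108.1 CPM in comparison lines 1, 2 and 3, where Fnip1 was at 63.8, 64.3 and 59.5 CPM, and their part in the result was not tested.

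Flcn, the folliculin gene itself, was at 35.3, 47.0 and 40.1 CPM in Myc_Utx lines and at 53.1, 86.2 and 44.2 CPM in comparison lines. Line 2 of the comparison group was the highest by a wide margin, and line 3 lay below line 2B of Myc_Utx. The log2 fold change was -0.58 ± 0.28 (standard error; 95% interval -1.25 to 0.08) and did not pass the test (adjusted p = 0.186). Without line 2 of the comparison group it was -0.25.

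**Figure D2:**
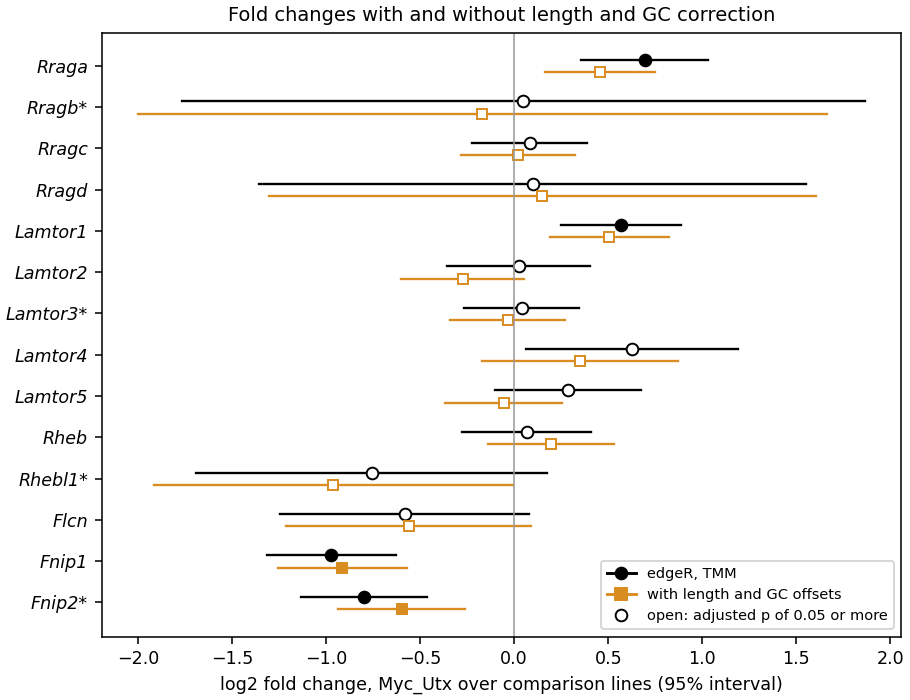
Log2 fold change (Myc_Utx over comparison lines) with its 95% interval for the members and, with an asterisk, the other genes of their families, from edgeR with TMM scaling (black circles) and with length and GC offsets for each line (orange squares); filled symbols have an adjusted p under 0.05. Fnip1 and Fnip2 are filled in both fits, Rraga and Lamtor1 in the first alone, and the intervals of Rragb and Rragd are the widest.

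The called members also depended on which lines entered. With each line left out in turn, Fnip1 passed the threshold in 2 of 6 fits, without line 1 (adjusted p = 0.0382) and without line 2 (adjusted p = 0.0219) of the comparison group, and its log2 fold change stayed between -1.05 and -0.89. Its adjusted p was 0.0685 without 2A, 0.0568 without 2B, 0.0723 without 2D and 0.0541 without line 3 of the comparison group. Rraga passed in 1 of 6, without line 2 of the comparison group (adjusted p = 0.0269), with a log2 fold change from 0.60 to 0.79 and an adjusted p up to 0.103. Lamtor1 likewise passed without line 2 of the comparison group (adjusted p = 0.0439), with a log2 fold change from 0.48 to 0.62 and an adjusted p up to 0.126. The same happened across the table: without 2A, 3 genes were called higher and 1 lower of 12064 tested, and without line 2 of the comparison group, 836 and 1118 of 11927. Without line 2 of the comparison group, the members called were again 2 higher and 1 lower. None of these fits turned the direction of Rraga, Lamtor1 or Fnip1.

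**Figure D3:**
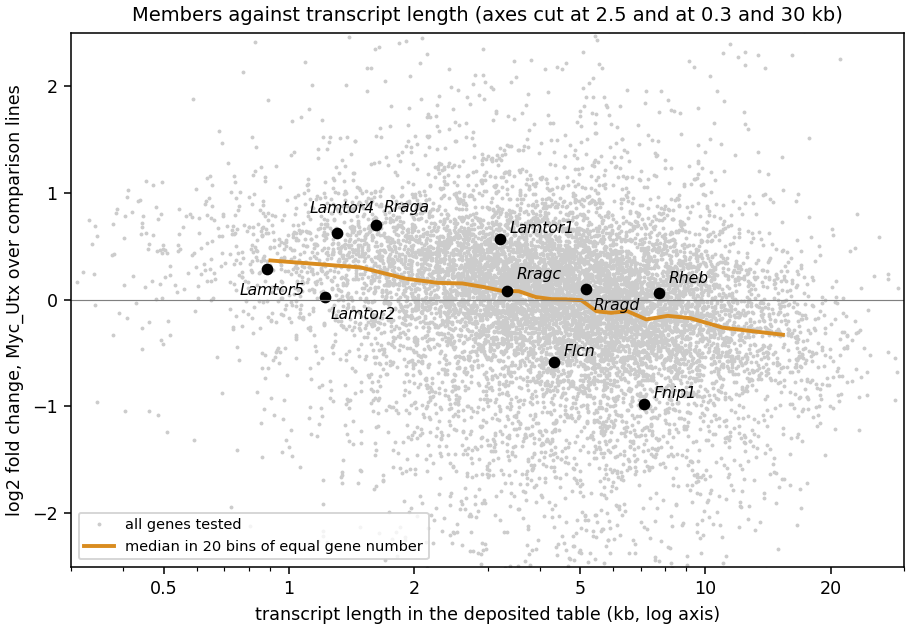
Log2 fold change (Myc_Utx over comparison lines) against transcript length (kb, log axis) for all tested genes (grey), with the median in 20 bins of equal gene number (orange line) and the members in black. The median falls with length; Rraga and Lamtor4 lie above it at 1618 and 1302 bases, and Fnip1 lies below it at 7119 bases.

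The levels of different genes were compared as CPM per kilobase, with the length given in the count table. For 95.3% of genes that length equals the union of the gene's GENCODE M21 exons, which can exceed any single transcript. The longest transcripts of Lamtor1, Lamtor2 and Rheb have 1936, 668 and 4046 bases, against 3215, 1218 and 7721 in the count table. The order of genes depends on the length used, and it was not recomputed with other lengths. In Myc_Utx lines Rraga was the highest of the 14 family genes, at 70.7 ± 6.54 (SD, n = 3), followed by Lamtor5 at 46.5 ± 7.13 and Rragc at 35.9 ± 4.05. Neither Rraga nor Lamtor5 overlapped the next gene in the order. Rragc, Lamtor2 (30.2 ± 4.402) and Lamtor1 (26.7 ± 1.31) overlapped from each to the next. Lamtor4 (16.4 ± 1.09) and Rheb (14.5 ± 1.56) also overlapped. In comparison lines Rraga (43.7 ± 5.29), Lamtor5 (38.1 ± 1.94) and Rragc (34.0 ± 2.68) headed the same order, but their ranges overlapped from each to the next. Rragd was the lowest in both groups, at 2.57 ± 1.35 and 2.40 ± 1.65. Fnip1 ranked 13 of 14 in Myc_Utx and 11 of 14 in comparison lines, with levels of 4.48 ± 0.51 and 8.79 ± 0.38, and in both groups its range overlapped that of the next gene in the order. In Myc_Utx lines that next gene was Rragd.

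On the same scale, each paralogue pair was described by the share of its first gene, in 4 two-sided exact permutation tests of 3 lines against 3, whose smallest possible p is 0.1. Rraga made up 89.1 ± 2.42% of Rraga and Rragb in Myc_Utx and 84.3 ± 11.6% in comparison lines (exact p = 0.5, adjusted over the 4 pairs 0.667). Rragc made up 93.5 ± 2.48% of Rragc and Rragd against 93.7 ± 3.73% (exact p = 1.0). Fnip1 made up 48.6 ± 0.886% of Fnip1 and Fnip2 against 51.7 ± 1.85%, without overlap of the lines (exact p = 0.1, adjusted 0.2). The share of Fnip1 differed by -3.11 percentage points (Myc_Utx minus comparison) while the sum of both genes differed far more, so the pair changed mostly together. Rheb made up 72.7 ± 5.37% of Rheb and Rhebl1 against 60.1 ± 6.09%, also without overlap (exact p = 0.1, adjusted 0.2). That share depends on the length of Rhebl1, 1940 bases in the table and 3035 bases as the union of its exons in GENCODE M21.

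**Figure D4:**
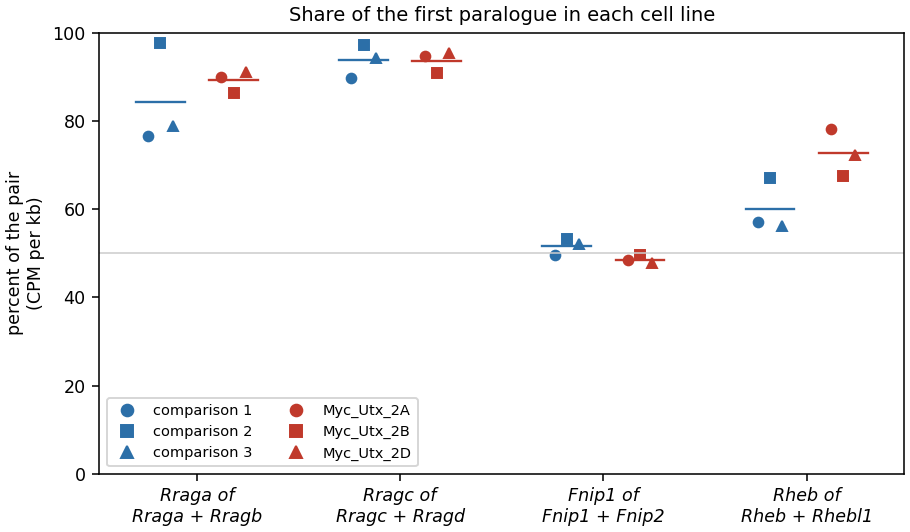
Share of the first gene in each paralogue pair (percent of the pair's CPM per kb) in each cell line; points are lines and bars are group means, with comparison lines in blue and Myc_Utx in red. Rraga and Rragc dominate their pairs in every line, Fnip1 and Fnip2 are nearly equal, and Rraga reaches 97.7% in line 2 of the comparison group, where Rragb was lowest.

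Other genes of the pathway were counted in 5 lists. Among the regulators and lysosomal partners of the Rag GTPases, 7 of 8 were tested, 0 were called higher and 1 was lower, beside 6.99% and 7.69% of all tested genes. That gene, Slc38a9, encodes the lysosomal transporter that signals arginine to the Rag GTPases, and it was at 10.6, 11.2 and 12.7 CPM in Myc_Utx and 29.1, 32.1 and 21.2 CPM in comparison lines. The fitted change was -1.25 ± 0.22 (log2, standard error) at an adjusted p of 0.0223. Slc38a9 lost its call with length and GC content corrected together (-0.96, adjusted p = 0.0520). Its length in the count table is 16704 bases, and the part of length alone was not tested. The lines did not overlap for 4 genes of this list, all lower in Myc_Utx, as for 20.9% of all tested genes: Slc38a9 and, named here after their values were seen, Slc36a1 (-1.01, adjusted p = 0.0761), Sh3bp4 (-0.86, adjusted p = 0.0780) and Lars (-0.26, adjusted p = 0.117). The median of the 7 was -0.26.

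The vacuolar ATPase acidifies the lysosome and binds Ragulator. Of its 23 genes, 20 were tested, 1 was higher and 1 was lower, beside 6.99% and 7.69% of all tested genes, with a median log2 fold change of 0.08. Atp6ap1, an accessory subunit, was at 138.8, 150.0 and 145.2 CPM in Myc_Utx and 79.0, 89.9 and 102.1 CPM in comparison lines (0.68 ± 0.13 on the log2 scale, adjusted p = 0.0250). Atp6v0e2, a small subunit of the membrane sector, held 4, 11 and 2 counts in Myc_Utx lines and 207, 16 and 140 counts in comparison lines (-4.02 ± 0.99 on the log2 scale, adjusted p = 0.0444). Line 2 of the comparison group was close to the Myc_Utx lines in that gene.

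BORC, the complex that positions lysosomes and binds Ragulator, had 8 of 8 genes tested, of which 1 was higher and 0 were lower, beside 6.99% and 7.69% of all tested genes. Bloc1s2 was at 34.3, 29.4 and 30.1 CPM in Myc_Utx and 15.5, 13.2 and 13.7 CPM in comparison lines, a difference of 1.15 ± 0.17 on the log2 scale (adjusted p = 0.0171), and of 0.82 after the length and GC correction (adjusted p = 0.0421). The lines did not overlap for 5 of the 8, all higher in Myc_Utx, as for 21.1% of all tested genes: Bloc1s2 and, named after their values were seen, Borcs7 (1.06), Borcs5 (0.68), Borcs8 (0.43) and Kxd1 (0.36), whose adjusted p ranged from 0.0715 to 0.228. The median of the 8 was 0.40, and 0.23 with the correction.

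Of the MiT/TFE transcription factors, which the folliculin complex controls, 3 of 4 were tested. By edgeR 0 were higher and 0 were lower, beside 6.99% and 7.69% of all tested genes. At an unadjusted p under 0.05 there were also 0, beside 1916 higher and 2110 lower of the 11510 genes tested. With 3 genes, these counts do not show that the factors were unchanged. Tfec was at 0 in all lines. The list of 7 lipid-anchor enzymes includes those that attach the groups that hold Rheb and Lamtor1 on membranes, and not all of its genes do so. Of these 7, 0 were higher and 1 was lower, beside the same shares of all tested genes (6.99% and 7.69%). Nmt2, an N-myristoyltransferase, was at 60.6, 71.7 and 87.3 CPM in Myc_Utx and 125.0, 130.3 and 133.5 CPM in comparison lines (-0.82 ± 0.15 on the log2 scale, adjusted p = 0.0250).

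**Figure D5:**
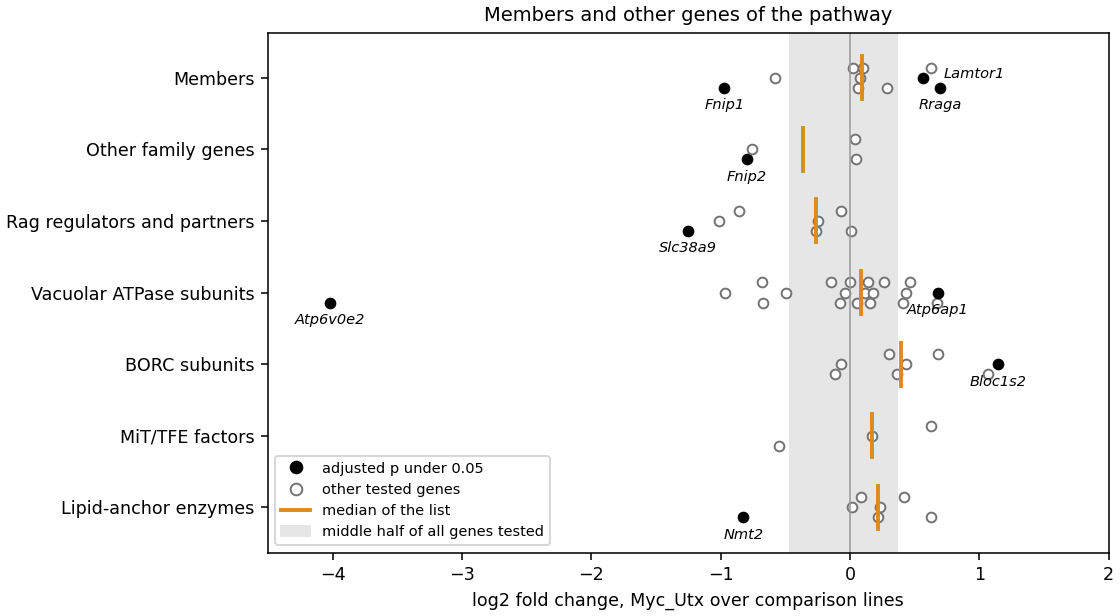
Log2 fold change (Myc_Utx over comparison lines) of every tested gene among the members, the other genes of their families and 5 lists of the pathway; filled points have an adjusted p under 0.05, orange bars are list medians, and the grey band is the middle of the distribution of all tested genes, between its quartiles. Called genes stand on both sides of 0 among the members, and Atp6v0e2 at -4.02 is the farthest from 0.

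The genes whose pattern over the 6 lines was most like that of Rraga and of Fnip1 were sought among the 9415 genes whose counts averaged 50 or more, by the root-mean-square difference of centred log2 CPM. For Rraga they were Elac2 (0.0543), Glrx5 (0.0642) and Alg14 (0.0664). For Fnip1 they were Trio (0.0780), A930004J17Rik (0.0914) and Etv3 (0.0976). With 6 lines and so many genes, such likeness is a description.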

How the data were processed

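The deposited table holds raw counts per Ensembl gene for the 6 cell lines, not normalized by the authors, beside annotation and transcript lengths. Per the submitters' processing notes, the tools were Trimmomatic 0.36, STAR 2.5.3a, featureCounts 1.6.3 and DESeq2 1.20.0, with build GRCm38 (mm10). The study's methods name another counter and a human build. Gene coordinates in the table equalled GENCODE M21 for 95.9% of genes. The strand setting of the counting was not given in the sources used here.

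Genes were fitted with edgeR 4.0.16 (R 4.3.3), using filterByExpr with a minimum count of 10, TMM scaling, the quasi-likelihood F test between 3 Myc_Utx and 3 comparison lines, and Benjamini-Hochberg adjustment over 11510 genes at 0.05. Standard errors were derived from F (absolute log2 fold change over its square root), and 95% intervals use the t quantile. The study's methods used DESeq2, which served as an alternative (DESeq2 1.42.0). Other alternatives were no filter, at least 10 counts in every line, DESeq2 size factors, total counts only, offsets for length and GC content per line (robust splines with 5 degrees of freedom, MASS 7.3-60.0.1), and leaving out each line. Exact permutation tests used scipy 1.17.1. The counts of assigned reads were 4656103 to 6937497 per line, and the model's variance includes counting error beside the variation between lines. The common dispersion was 0.112, a biological coefficient of variation of 33.4%. The fit was also run on simulated counts with a dispersion of 0.05, below that of these data, so that run does not measure its accuracy here.

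Named genes are all members, the other genes of their families, called genes of the lists, Kdm6a as a targeted gene, and the 3 genes nearest to the called member of smallest adjusted p in each direction. The members and lists were chosen with earlier results of these data known. Shared sequence was searched as 50-base stretches of the longest transcript of each gene among all GENCODE M21 transcripts, on both strands. Promoters are from RefSeq (GRCm38.p6). No columns of other samples were in the table. The second targeted gene is not reported here.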

Additional observations from a re-analysis of the deposited data

How the results depend on the processing

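Alternatives were compared for the members, the other genes of their families, the called genes of the lists and Kdm6a. The genes nearest to Rraga and Fnip1 were not included. Of these fold changes under an alternative, 177 kept their direction and side of the threshold and 44 kept their direction but lost the call. Another 18 changed sign, none of which belonged to a called gene. The members called higher numbered 1 without the filter, 1 when scaled by total counts (Rraga in both), 0 with length and GC offsets, and 0 to 2 when 1 line was left out. With DESeq2, DESeq2 size factors or at least 10 counts in every line, the calls stayed at 2 members higher and 1 lower. The members called lower numbered 0 to 1 when 1 line was left out, as did the other genes of the families, the vacuolar ATPase subunits in either direction, the BORC subunits called higher and the lipid-anchor enzymes in either direction. The regulators called lower numbered 0 with length and GC offsets, 4 with DESeq2 and 0 to 2 when 1 line was left out. With at least 10 counts in every line, 0 vacuolar ATPase subunits were called lower, since Atp6v0e2 was then not tested, and DESeq2 called 1 lipid-anchor enzyme higher. Leaving out a line removes samples, and whether anything else lowers the counts was not tested. Over all genes, the main fit called 805 higher and 885 lower (47.6% of calls higher). Total counts only called 601 and 1009 (37.3%), the length and GC offsets 616 and 627, and DESeq2 1268 and 1514. Without the filter, all genes had a median of -0.235. Signs changed for members near 0: Lamtor2 was -0.0212 with at least 10 counts in every line, -0.0433 with total counts only, -0.274 with the offsets and -0.0848 to 0.106 when 1 line was left out. Lamtor5 was -0.0561 with the offsets, and Rheb was -0.0012 with total counts only and -0.0287 to 0.16 when 1 line was left out. Rragd ranged from -0.41 to 0.76 and Rragb from -0.46 to 0.59 when 1 line was left out, and Rragb was -0.0264 with total counts only and -0.17 with the offsets. Lamtor3 was -0.0035 with at least 10 counts in every line, -0.026 with total counts only and -0.0351 with the offsets. The Rheb share differed by 12.6 percentage points, and by 5.73 without division by length. No paired analysis was possible because the groups share no replicate number in the labels.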

Other observations

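Ratios between members within a line do not depend on how libraries are scaled. The 3 ratios here were chosen after the values were seen, and all are of CPM per kilobase. They were not corrected for the length and GC effects of each line, which can still enter them. Rraga and Rragb together, relative to Rragc and Rragd together, came to 2.06, 1.89 and 2.26 in Myc_Utx lines 2A, 2B and 2D and to 1.43, 1.55 and 1.33 in comparison lines 1, 2 and 3. The lines did not overlap (two-sided exact permutation p = 0.1, the smallest that 3 lines against 3 allow). Lamtor1 relative to Lamtor2 came to 0.908, 0.971 and 0.795 in Myc_Utx and 0.653, 0.501 and 0.668 in comparison lines, again without overlap (exact p = 0.1). Flcn relative to Fnip1 and Fnip2 together came to 0.966, 1.07 and 1.03 in Myc_Utx and 0.680, 1.18 and 0.637 in comparison lines, and line 2 of the comparison group was above every Myc_Utx line (exact p = 0.4). Adjustment over the 3 ratios does not bring any of these below 0.1. Since the ratios were picked on these same values, the p-values only describe the separation and are no independent test.

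Line 2 of the comparison group stood apart from lines 1 and 3 in several genes of the family. It held the lowest Rragb (2.60 CPM), Rragd (4.82 CPM) and Rhebl1 (11.3 CPM) of its group and the highest Flcn of all 6 lines (86.2 CPM). The same line had the lowest sum of biliary or progenitor markers, 152.9 CPM against 1380 and 1462 CPM in lines 1 and 3, a sum of which Spp1 alone made up 79.8% over the 6 lines. In the sum of fibroblast or stellate markers it was line 1 that stood apart, at 24.8 CPM against 424.1 and 416.6 CPM in lines 2 and 3. Pdgfrb made up 53.8% of that sum over the 6 lines. Dcn went another way, with 86, 9 and 109 counts in lines 1, 2 and 3. The relation between these values was not tested.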
